A study of Mus musculus with 12 samples.

Results

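Between E15.5 and E18.5, ages in embryonic days, the mouse cortex passes the end of neurogenesis and enters the first phase of gliogenesis. RNA of E18.5 cortex on 4 arrays was set against RNA of E15.5 cortex on 4 arrays. Each was an Illumina BeadChip, in which every bead-bound probe reports a transcript as a fluorescence signal. These were 8 of the 12 arrays of a time course whose other 4 arrays are E12.5 cortex. The animals were wild-type mice of C57BL/6J background with no transgene or treatment, and the design text speaks of 4 embryos per time point without saying whether each array holds 1 embryo or a pool. The comparison took in every probe detected (at a p-value under 0.01) on 1 or more of the 8 arrays, which were 18789 of 45281 probes and 10328 named genes.

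In the cortical wall, radial glia line the ventricle, divide, and give rise to intermediate progenitors, which divide again to produce excitatory neurons. The neurons migrate outward and settle in an inside-out order, deep layers first, and then extend axons and dendrites and assemble synapses. Toward birth the remaining progenitors turn from neurons to astrocytes and oligodendrocyte precursors, while inhibitory interneurons and the first oligodendrocyte precursors arrive from the ganglionic eminences. The questions posed here were which transcripts of these cells differed between the ends of this interval, and by how much. In bulk tissue, fewer cells of a type and less RNA per cell cannot be told apart.

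Median signals were 94.97 to 99.3 on the E18.5 arrays and 88.8 to 93.3 on the E15.5 arrays before normalization (exact permutation test, two-sided p = 0.0286, the smallest that 4 against 4 arrays allow). The number of detected probes was 16194 to 17472 at E18.5 and 15227 to 16219 at E15.5 (exact permutation p = 0.0571). Values below are background-corrected, quantile-normalized log2 signals, which compare 1 probe across arrays but not different probes. Several arrays stood apart from others of their stage. E15.5 replicate 4 carried a high level of choroid plexus transcripts, E15.5 replicate 1 was farthest from E18.5 in 865 of 1330 called genes (65%), and E18.5 replicate 4 and E15.5 replicate 2 lay at opposite ends of the second principal component (23.34 and -23.45, the others -8.08 to 8.501), which held 6.46% of the variance against 82.8% for the first. Without E15.5 replicate 1, 1243 genes were called in place of 1330. Transcripts that mark the sexes also set arrays apart: the Y-linked Eif2s3y was not detected on E15.5 replicate 1 (4.47) and Xist, the RNA that silences an X chromosome in females, not on E15.5 replicate 2 (4.69), while the other 6 arrays detected both. Those 6 arrays thus showed transcripts of both sexes, which RNA of a single embryo would not hold. Whether they held pools or stray RNA was not tested. The part in the results of the arrays that stood apart was not tested beyond leaving each out. The arrays are labeled as separate samples of a stage, and p-values measure the spread between them.

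The interval changed a large part of the cortical transcriptome in both directions. With limma, calling probes that changed 2-fold or more with the adjusted p below 0.01, 1372 probes were higher at E18.5 (7.30% of those tested) and 957 lower (5.09%). By gene, each taken at its brightest tested probe, 745 of 10328 were higher (7.21%) and 585 lower (5.66%). Most called changes were of moderate size. Of the higher genes 628 changed by 2-fold to 4-fold, 97 by 4-fold to 8-fold and 20 by 8-fold or more, and of the lower genes 496, 83 and 6 in the same order of size. Of the called genes, 186 higher ones were detected on no E15.5 array and 90 lower ones on no E18.5 array, so that only a bound on their fold change can be given. Values of the stages did not overlap for 1328 of the 1330 called genes, a separation the call itself favors. Near the fold threshold the sizes ran on without a gap: Crhr1, the receptor of corticotropin-releasing hormone, lay just inside at a log2 fold change of 1.0007 (SE 0.10) and Insm1, a zinc-finger factor of newborn neurons, just outside at -0.9989 (SE 0.16). Without the minimum fold, 2136 genes were higher (20.7%) and 2469 lower (23.9%), and these shares are the background for the gene groups below, whose members were counted at the adjusted p alone. "Rose" and "fell" are used only of genes that passed it, and changes of single genes are log2 fold changes ± SE (n = 4 arrays per stage) unless a fold is named.

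**Figure D1:**
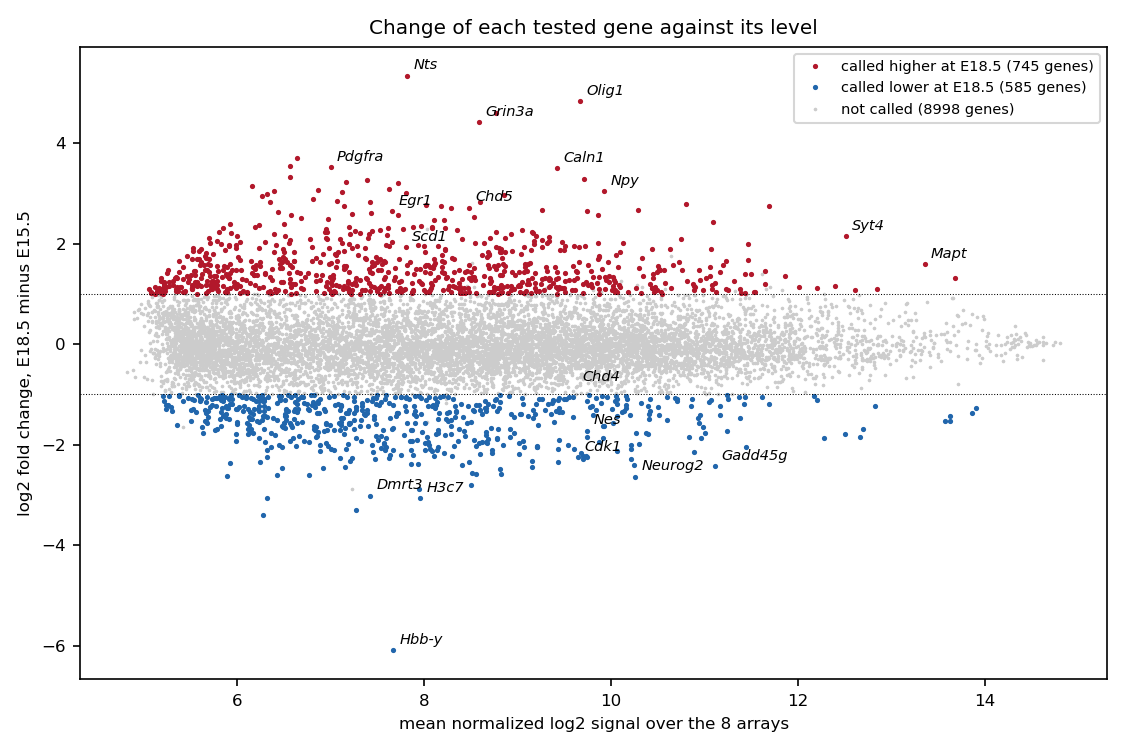
Change between the stages by signal level. Each point is 1 of the 10328 tested genes, with its mean log2 signal over the 8 arrays on the x axis and its log2 fold change, E18.5 over E15.5, on the y axis, and the 745 genes called higher and 585 called lower are colored. Called changes spread over nearly the whole range of signals in both directions, and for genes undetected at a stage the plotted change is a fitted value.

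Clone and predicted names left aside, the largest rise among genes detected on all 8 arrays was that of Olig1, which encodes a bHLH factor of oligodendrocyte precursors, with log2 signals of 12.19, 12.07, 12.04 and 12.07 at E18.5, against 6.47, 8.01, 7.35 and 7.19 at E15.5 (log2 fold change 4.84 ± 0.28, adjusted p = 1.6e-08). Grin3a, a subunit of NMDA-type glutamate receptors, read 10.87, 10.70, 10.81 and 10.82 at E18.5, against 6.07, 6.82, 6.37 and 6.27 at E15.5 (log2 fold change 4.41 ± 0.14, adjusted p = 3.1e-10). In both genes every E18.5 array lay several log2 units above every E15.5 array, and the E18.5 arrays lay closer together than the E15.5 arrays in Olig1. Caln1, which encodes the neuronal calcium-binding protein calneuron, read 11.33, 11.04, 11.04 and 11.29 at E18.5, against 7.28, 8.11, 7.72 and 7.59 at E15.5 (log2 fold change 3.50 ± 0.24, adjusted p = 6.0e-08), and Tafa2, a secreted chemokine-like protein, 11.31, 11.48, 11.29 and 11.31 at E18.5, against 7.15, 8.81, 8.14 and 8.15 at E15.5 (log2 fold change 3.29 ± 0.26, adjusted p = 2.8e-07). Npy, which encodes neuropeptide Y, stood at 11.31, 11.45, 11.45 and 11.58 at E18.5, against 8.09, 8.61, 8.56 and 8.35 at E15.5 (log2 fold change 3.04 ± 0.42, adjusted p = 4.0e-05). Grm5, the metabotropic glutamate receptor that drives phospholipase C, showed 9.15 to 9.53 at E18.5 against 6.03 to 6.55 at E15.5 (log2 fold change 3.01 ± 0.12, adjusted p = 1.1e-09). The other large rises were those of Kndc1 (3.09), Plppr5 (2.83), Gucy1a1 (2.80), Vsnl1 (2.76), Gdf10 (2.76), Chd5 (2.72), Slco1c1 (2.71) and Atp1b1 (2.67). Plppr5 is a membrane protein of neurite outgrowth, Gucy1a1 a subunit of the nitric oxide receptor, Vsnl1 a calcium sensor of neurons, and Gdf10 a growth factor of the TGF-beta family. Slco1c1 carries thyroid hormone across the vessel wall, and Atp1b1 is a subunit of the sodium pump. Their stages did not overlap. Nme7 also entered the rule for large rises (2.74), but of its 8 tested probes 3 rose and 5 fell, so no direction is given for the gene.

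Among genes detected on no E15.5 array, Nts, which encodes the peptide neurotensin, read 10.52, 10.50, 10.71 and 10.24 at E18.5, against 5.17, 5.17, 5.38 and 4.89 at E15.5 (at least 25.9-fold higher at E18.5, adjusted p = 1.4e-10). Pdgfra, the growth factor receptor of oligodendrocyte precursors, read 8.82, 8.59, 8.70 and 8.94 at E18.5, against 5.03, 5.34, 5.13 and 5.44 at E15.5 (at least 7.82-fold higher at E18.5, adjusted p = 7.6e-09). Here the E15.5 arrays were all at background and the E18.5 arrays within a narrow band. Nrgn, which encodes the calmodulin-binding postsynaptic protein neurogranin, was higher at E18.5 by at least 6.47-fold, adjusted p = 1.8e-09. Egfr, the receptor by which late progenitors respond to epidermal growth factor, was higher at E18.5 by at least 5.8-fold, adjusted p = 1.4e-10, with 8.19 to 8.46 at E18.5 against 4.67 to 4.92 at E15.5. The deep-layer zinc-finger factor Tshz2 was higher at E18.5 by at least 5.53-fold, adjusted p = 4.4e-09, and Usp43, a ubiquitin protease, at least 6.09-fold higher at E18.5, adjusted p = 4.8e-09.

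The largest falls were led by a replication-dependent histone gene, H3c7, at 6.19, 6.52, 6.53 and 6.47 at E18.5, against 9.87, 9.26, 9.39 and 9.45 at E15.5 (log2 fold change -3.06 ± 0.13, adjusted p = 1.7e-09), whose probe cannot be told from near-identical histone copies. Dmrt3, a transcription factor of the medial and dorsal cortical ventricular zone, read 5.95, 5.81, 6.17 and 5.74 at E18.5, against 9.29, 8.57, 8.75 and 9.11 at E15.5 (log2 fold change -3.01 ± 0.18, adjusted p = 2.0e-08). Neurog2, the proneural factor that commits cortical progenitors to the excitatory fate, read 8.80, 8.97, 8.96 and 9.04 at E18.5, against 11.78, 11.51, 11.55 and 11.47 at E15.5 (log2 fold change -2.64 ± 0.09, adjusted p = 3.1e-10). Each stage held together tightly in these genes and no array crossed over. Tk1, the thymidine kinase of S phase, fell by 2.56 on the log2 scale, with 7.11 to 7.29 at E18.5 against 9.68 to 9.88 at E15.5. Gadd45g, which newborn neurons and intermediate progenitors transcribe, fell by 2.42, with 9.82 to 9.95 at E18.5 against 12.16 to 12.54 at E15.5. Rhbdl3 (-2.89), Dct (-2.58), an enzyme of the melanin pathway that cortical progenitors also transcribe, Shisa2 (-2.41), an antagonist of Wnt and FGF receptor maturation, Tfap2c (-2.40), a transcription factor of basal progenitors, Knstrn (-2.38), a spindle protein, and Col2a1 (-2.38), a fibrillar collagen, followed, each with stages that did not overlap. Further histone genes and Lockd, an RNA gene next to Cdkn1b, completed the largest falls (H3c6 (-2.81), H3c4 (-2.58), H2ac21 (-2.44) and Lockd (-2.48)).

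Of the genes lost from detection at E18.5, the embryonic globin Hbb-y read 4.52, 4.69, 4.61 and 4.68 at E18.5, against 11.86, 9.89, 10.41 and 10.70 at E15.5 (at least 34.4-fold lower at E18.5, adjusted p = 4.4e-09), and Hba-x, the embryonic alpha-type globin, was at least 5.13-fold lower at E18.5, adjusted p = 5.8e-08. Both are transcribed in primitive red cells, which the definitive lineage replaces in these days. Wnt3a, the ligand of the cortical hem, read 4.91, 4.80, 4.71 and 4.76 at E18.5, against 8.04, 7.71, 7.72 and 7.93 at E15.5 (at least 4.72-fold lower at E18.5, adjusted p = 1.6e-09). Tgif1, a repressor of TGF-beta targets, was at least 4.34-fold lower at E18.5, adjusted p = 4.4e-09, Kcnk5, a leak potassium channel, at least 3.49-fold lower at E18.5, adjusted p = 7.8e-08, and Cmtm7, a membrane protein, at least 3.41-fold lower at E18.5, adjusted p = 2.9e-08.

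**Figure D2:**
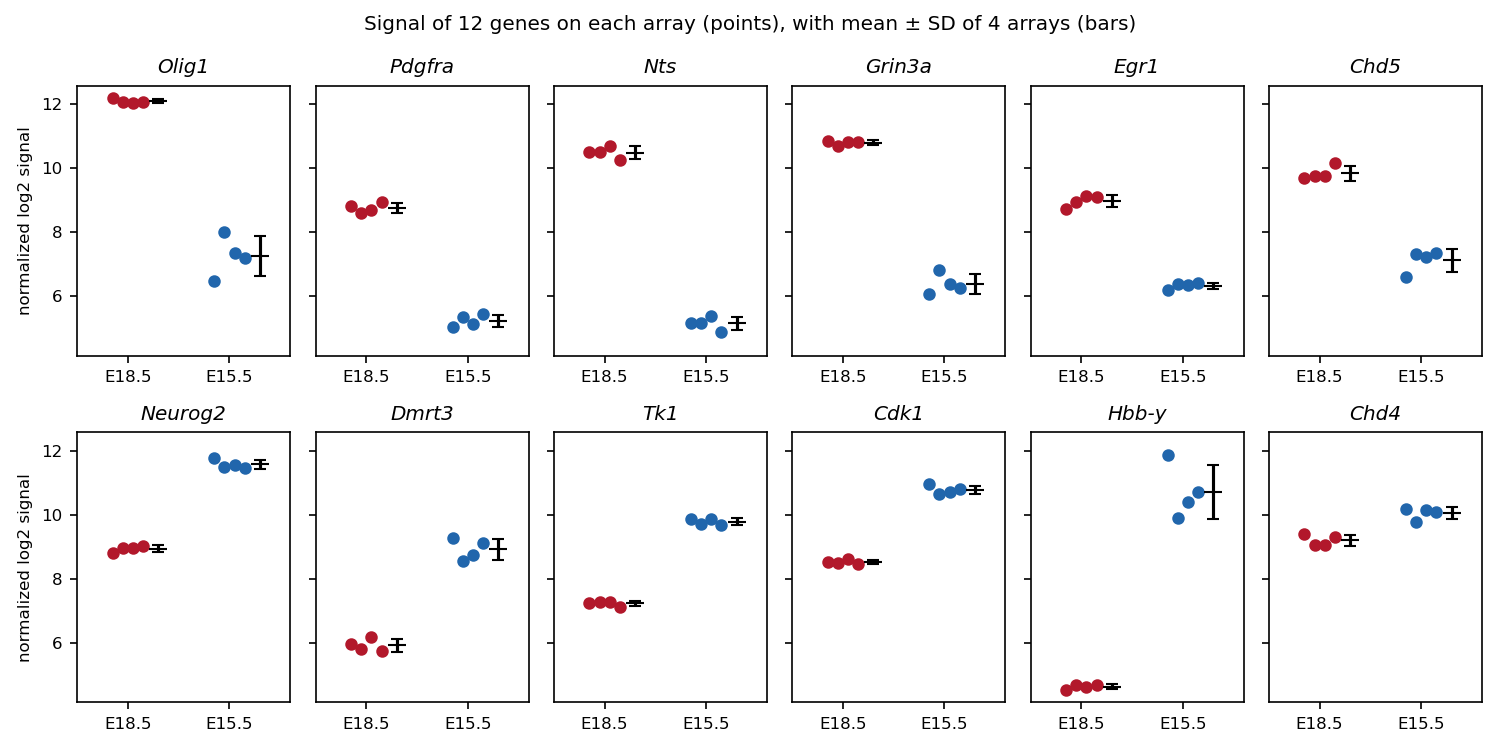
Log2 signals of leading genes on each array. Every point is 1 array, with the E18.5 arrays (red) left of the E15.5 arrays (blue) for each gene, and bars show the mean and SD of the 4 arrays. No E18.5 array overlaps an E15.5 array in any of the 12 genes plotted, of which Olig1 reads 12.04 to 12.19 at E18.5.

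Genes of the dividing cell fell nearly as a block. Of 28 tested mitosis genes 27 were lower at E18.5 and 1 higher, against 23.9% and 20.7% of all genes, with a median log2 fold change of -1.94 beside -0.05 over all tested genes. Of the falls, 25 reached 2-fold. Of 30 DNA replication genes 28 were lower and none higher (median -1.36). In the order of their work, the 12 genes that license origins and form the helicase all fell: Mcm3, a helicase subunit, read 6.51, 6.40, 6.21 and 6.19 at E18.5, against 8.81, 8.44, 8.71 and 8.49 at E15.5 (log2 fold change -2.28 ± 0.14, adjusted p = 2.6e-08), Mcm10 fell by 2.23, Mcm2 by 1.97 and Mcm5 by 1.77 on the log2 scale, as did Cdc6 (-1.78) and Cdt1 (-1.73), which load the helicase. Of the 13 genes of the synthesis machinery 12 fell, from Pole (-1.46), the leading-strand polymerase, to Pold2 (-0.66), and the exception was the sliding clamp Pcna, at 7.53 ± 0.65 at E18.5 and 8.21 ± 0.46 at E15.5 (SD, n = 4 each; log2 fold change -0.68 ± 0.32, adjusted p = 0.082). Among suppliers of nucleotides, Tk1, Tyms (-1.85), Rrm2 (-1.94) and Rrm1 (-1.17) fell, and Dut (-0.12, adjusted p = 0.39) did not pass, but fell with its probes averaged (-0.55, adjusted p = 0.0026).

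Cdk1, the kinase that starts mitosis, read 8.52, 8.51, 8.63 and 8.47 at E18.5, against 10.95, 10.64, 10.70 and 10.80 at E15.5 (log2 fold change -2.24 ± 0.11, adjusted p = 4.4e-09). Cdc20, the activator of the anaphase-promoting complex, read 8.33, 8.55, 8.68 and 8.71 at E18.5, against 11.15, 10.62, 10.76 and 10.84 at E15.5 (log2 fold change -2.28 ± 0.12, adjusted p = 8.6e-09). In each, the 4 E18.5 arrays lay within a narrow range below all E15.5 arrays. The aurora kinases Aurka and Aurkb (-2.17 and -2.18), the polo kinase Plk1 (-2.001) and the survivin gene Birc5 (-2.19), a partner of Aurkb, fell by like amounts, as did the motor Kif11 (-2.11), the kinetochore gene Spc25 (-2.11) and the topoisomerase Top2a (-2.05). Ncapg, a condensin subunit, was the single member to rise (adjusted p = 8.4e-04). It was detected on no E15.5 array and its signals were low at both stages (5.69 to 5.96 at E18.5 against 5.17 to 5.45 at E15.5). Genes of G1 behaved less uniformly. The cyclins Ccne2 (-1.57) and Ccnd2 (-1.06) and the kinases Cdk2 (-1.63) and Cdk4 (-1.03) fell, whereas Ccnd1 read 9.44 ± 0.08 at E18.5 and 9.60 ± 0.11 at E15.5 (log2 fold change -0.16 ± 0.14, adjusted p = 0.35). Another Ccnd2 probe also fell (-1.21), and a dimmer one, detected on all arrays of both stages, did not pass (-0.11, adjusted p = 0.51). Of 7 inhibitors 3 fell, which were Rbl1 (-1.82), Cdkn2c (-1.04) and Cdkn1a (-0.69), and Cdkn1b, which holds neurons out of the cycle, was near level (-0.05, adjusted p = 0.74). The 46 tested histone genes, a group set together after their values were seen, held none that rose and 43 that fell, 33 of them by 2-fold or more. The counts over histone genes are uncertain since copies share sequence.

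Many promoters of these groups, but not all, hold matches to known cell cycle elements. Late cell cycle genes are controlled through a CHR element, which the MuvB complexes bind, next to CCAAT boxes, which NF-Y binds, and genes of replication through E2F sites. Promoters of 5 genes named above are shown because each holds matches to these elements within RefSeq's window of 250 bases before to 50 bases after the annotated start (GRCm38.p6), written 5′ to 3′ on the strand of the gene. They are Cdc20 (chr4:118437294-118437593, minus strand), Cdk1 (chr10:69352863-69353162, minus strand), Aurka (chr2:172370521-172370820, minus strand), Mcm3 (chr1:20820263-20820562, minus strand) and Mcm5 (chr8:75109259-75109558, plus strand). Capitals mark the matches, CHR (TTTGAA or TTCGAA) and CCAAT in Cdc20, Cdk1 and Aurka, and E2F (TTTGGCGC, TTTCGCGC, TTTCCCGC or TTTGCCGC) in Mcm3 and Mcm5, each searched on both strands. In Mcm5 the capitals are overlapping matches on both strands.
Cdc20: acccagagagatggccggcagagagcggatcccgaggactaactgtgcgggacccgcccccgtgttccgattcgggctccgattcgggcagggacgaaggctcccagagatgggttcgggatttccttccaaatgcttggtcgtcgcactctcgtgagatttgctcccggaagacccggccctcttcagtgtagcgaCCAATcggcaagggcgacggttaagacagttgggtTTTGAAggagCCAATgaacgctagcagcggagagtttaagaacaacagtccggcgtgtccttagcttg
Cdk1: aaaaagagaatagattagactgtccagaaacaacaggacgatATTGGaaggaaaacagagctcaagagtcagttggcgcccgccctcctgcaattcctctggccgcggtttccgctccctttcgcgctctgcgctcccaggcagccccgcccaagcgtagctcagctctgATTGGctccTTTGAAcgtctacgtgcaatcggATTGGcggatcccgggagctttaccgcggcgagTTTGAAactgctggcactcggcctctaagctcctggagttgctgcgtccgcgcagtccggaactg
Aurka: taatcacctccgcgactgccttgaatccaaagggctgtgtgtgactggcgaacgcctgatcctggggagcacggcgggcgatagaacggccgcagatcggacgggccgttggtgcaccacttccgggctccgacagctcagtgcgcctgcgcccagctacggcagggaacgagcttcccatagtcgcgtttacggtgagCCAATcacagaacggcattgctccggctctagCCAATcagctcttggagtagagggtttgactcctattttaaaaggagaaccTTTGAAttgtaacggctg
Mcm3: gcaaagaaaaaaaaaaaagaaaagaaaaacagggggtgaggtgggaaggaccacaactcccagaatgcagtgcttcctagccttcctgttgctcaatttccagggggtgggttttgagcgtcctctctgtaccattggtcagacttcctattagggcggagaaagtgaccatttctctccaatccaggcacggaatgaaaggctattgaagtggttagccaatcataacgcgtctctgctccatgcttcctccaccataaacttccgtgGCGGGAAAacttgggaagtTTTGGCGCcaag
Mcm5: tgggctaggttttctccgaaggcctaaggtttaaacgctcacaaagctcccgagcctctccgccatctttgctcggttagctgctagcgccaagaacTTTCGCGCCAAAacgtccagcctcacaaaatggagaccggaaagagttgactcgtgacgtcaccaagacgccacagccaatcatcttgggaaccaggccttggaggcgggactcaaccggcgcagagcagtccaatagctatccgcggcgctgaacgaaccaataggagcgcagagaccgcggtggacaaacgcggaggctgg
Over the mitosis list, 24 of 28 genes had a promoter to search, 26 promoters in all. They include that of Ncapg, the member that rose, which held all of the elements, and that of Birc5, which held none. A CHR match stood in 23 of the 26 (88.5%), against 19.2% of all 32851 promoters and 13.4% of the 10813 promoters of tested genes. CCAAT stood in 21 of 26 (80.8%), against 37.4% and 38%, and both elements together in 80.8%, against 7.52% and 5.44%. E2F letters stood in 9 of 30 promoters (30%) of the replication list, of which 25 of 30 genes had one, against 2.26% and 3.86%. Promoters of all genes called lower held CHR in 25.5%, CCAAT in 47.9% and E2F in 9.06%, and those of genes called higher in 12.1%, 30.5% and 1.71%. These are matches of letters, with no test and no measurement of binding.

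Radial glia genes fell in parallel, and their transcription factors most of all. Of 22 tested members 16 were lower and none higher (median -0.95, and -0.84 with undetected genes at their bounds). Of 11 transcription factors 10 fell. Dmrt3 led, and Tead2, the DNA-binding partner of the Hippo effectors, read 9.09, 9.11, 9.04 and 9.07 at E18.5, against 11.52, 11.19, 11.38 and 11.33 at E15.5 (log2 fold change -2.28 ± 0.12, adjusted p = 7.7e-09). Id4, an inhibitor of differentiation factors, fell by 2.24 and Hes1, the Notch-driven repressor that keeps progenitors undifferentiated, by 2.10 on the log2 scale. Emx1, which gives dorsal cortical progenitors and their neurons their identity, fell (-1.74), and Sox2 fell by a smaller amount, with 8.03 to 8.24 at E18.5 against 8.46 to 9.08 at E15.5 (log2 fold change -0.63 ± 0.13, adjusted p = 0.0012). Pax6, the master factor of cortical radial glia, read 4.89, 4.79, 5.27 and 4.63 at E18.5, against 5.65, 5.86, 5.68 and 5.22 at E15.5 on a probe detected on 1 array only, a level that does not allow a fold (adjusted p = 0.043, and 0.003 in the fit of the 8 arrays alone). Among structural genes, Nes and Vim, the intermediate filaments of radial glia, fell (-1.72 ± 0.10 and -1.73 ± 0.08), as did the apical membrane protein Prom1 (-2.09). The glutamate transporter Slc1a3 read 12.06 ± 0.07 at E18.5 and 11.77 ± 0.02 at E15.5 (log2 fold change 0.28 ± 0.10, adjusted p = 0.031) and the lipid-binding protein Fabp7 8.48 ± 0.70 at E18.5 and 8.11 ± 0.76 at E15.5 (log2 fold change 0.37 ± 0.44, adjusted p = 0.5), and neither passed. Slc1a3 passed as higher in the fit of the 8 arrays alone (adjusted p = 0.005), with cyclic loess (0.41, adjusted p = 0.00525), with array weights and without E12.5 replicate 3.

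Of 15 genes of intermediate progenitors and newborn neurons 11 were lower and 1 higher (median -1.08). Eomes (Tbr2), the defining factor of intermediate progenitors, read 8.02, 8.58, 8.54 and 7.59 at E18.5, against 10.08, 10.58, 10.13 and 10.13 at E15.5 (log2 fold change -2.05 ± 0.22, adjusted p = 4.1e-06). Besides Neurog2 and Gadd45g, the proneural factor Neurod4 (-2.27), the migration GTPase Rnd2 (-2.13), a direct target of Neurog2, and the Notch modifier Mfng (-2.08) fell more than 4-fold. Neurod6, a factor that settled neurons also transcribe, averaged 6.66 ± 0.33 at E18.5 and 6.48 ± 0.74 at E15.5 and did not pass (adjusted p = 0.71). Cxcl12, a chemokine that guides migrating cells and that meninges and vessels also make, was the member that rose (log2 fold change 1.43 ± 0.13, adjusted p = 9.6e-07). Dcx, the microtubule protein of migrating neurons, read 12.56, 12.66, 12.74 and 12.72 at E18.5, against 11.82, 11.72, 11.98 and 12.10 at E15.5, and its adjusted p of 0.019 (log2 fold change 0.76 ± 0.25) missed the threshold in the fit of all 12 arrays and passed it in the fit of the 8 arrays alone and without E12.5 replicate 4 (adjusted p = 3.83e-05).

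Most genes of the Notch and Wnt pathways fell as well. Of 15 Notch pathway genes 12 were lower and 2 higher (median -0.88): the receptors Notch1 (-1.39) and Notch3 (-0.88), the ligand Dll1 (-0.95) and the targets Hes1, Hes5 (-0.85), Hey1 (-1.32) and Nrarp (-1.21) fell, and the ligand Jag2 (0.91) and the glycosyltransferase Rfng (0.85) rose. Of 27 Wnt pathway genes 19 were lower and 2 higher (median -0.89). Tcf7l1, a repressor that Wnt signals relieve, read 7.14, 7.22, 7.46 and 7.41 at E18.5, against 9.60, 9.41, 9.79 and 9.81 at E15.5 (log2 fold change -2.35 ± 0.14, adjusted p = 2.1e-08). The receptors Fzd2 (-2.05) and Fzd7 (-1.23), the target Axin2 (-1.01) and the feedback inhibitor Nkd1 (-1.37) fell, and the secreted Dkk3 (1.11), also an upper-layer gene, and the receptor Fzd5 (5.42 to 5.71 at E18.5 against 4.82 to 5.09 at E15.5) rose. Several markers of the cortical hem, the medial source of Wnt and BMP signals, were lost from detection: beside Wnt3a, Wnt8b was at least 1.87-fold lower at E18.5, adjusted p = 1.5e-06, Otx2, also a choroid plexus factor, at least 2.82-fold lower at E18.5, adjusted p = 2.3e-06 and Msx1 at least 2.39-fold lower at E18.5, adjusted p = 1.1e-04. Otx2 (7.80) and Msx1 (7.32) were highest on E15.5 replicate 4, and both passed without that array (adjusted p = 3.6e-06 and 4.8e-04). The part of choroid plexus content in these falls was not tested. The secreted Wnt amplifier Rspo3 fell but stayed detected, with 8.30 to 8.65 at E18.5 against 9.65 to 10.05 at E15.5. Zbtb20, a zinc-finger factor of the hippocampus, was the 1 gene of 19 hem, hippocampus and choroid plexus genes to rise (log2 fold change 1.08 ± 0.19, adjusted p = 2.8e-04), beside 10 that fell.

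Of 25 genes of the FGF and BMP group 7 were higher and 6 lower, against 20.7% and 23.9% of all genes. The FGF ligands Fgf10 (7.21 to 7.48 at E18.5 against 5.58 to 5.90 at E15.5) and Fgf9, which was higher at E18.5 by at least 1.49-fold, adjusted p = 2.1e-05, and the intracellular homologs Fgf12 (2.22) and Fgf13 (1.20), which regulate sodium channels, rose. The receptors Fgfr2 (-0.96) and Fgfr3 (-1.46) fell, and the FGF-induced factors Etv4 (0.82) and Etv5 (0.89) rose.

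Oligodendrocyte lineage genes appeared. Of 16 tested members 12 were higher and none lower (median 0.90, and 0.85 with bounds), against 20.7% and 23.9% of all genes. Sox10, a transcription factor of the lineage, read 7.88, 7.65, 7.61 and 8.10 at E18.5, against 4.64, 5.09, 4.76 and 4.81 at E15.5 (at least 4.04-fold higher at E18.5, adjusted p = 1.6e-09). Gpr17, a receptor of precursors that commit to differentiate, was higher at E18.5 by at least 1.95-fold, adjusted p = 3.8e-09, and Matn4, a matrix protein of precursors, at least 1.61-fold higher at E18.5, adjusted p = 7.2e-07. The E15.5 arrays were at background in all of these, as they were in Pdgfra. Nkx2-2 (5.59 to 5.91 at E18.5 against 4.45 to 4.72 at E15.5) and Lhfpl3 (5.81 to 6.21 at E18.5 against 4.71 to 4.85 at E15.5) rose in the same pattern. Olig2 stayed low, at 5.33 to 5.64 at E18.5 against 4.54 to 4.69 at E15.5, and was detected on 1 E18.5 array only (adjusted p = 1.6e-06). Mbp, the myelin basic protein, rose by a smaller amount (log2 fold change 0.86 ± 0.09, adjusted p = 2.7e-06).

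Astrocyte genes were evenly divided, with 10 of 27 higher and 10 lower. Among the rises, Gfap, the intermediate filament of astrocytes, read 7.75, 7.30, 7.29 and 7.37 at E18.5, against 5.42, 5.65, 5.47 and 5.62 at E15.5 (at least 3.1-fold higher at E18.5, adjusted p = 3.5e-08). Aldh1l1, an enzyme of folate metabolism and a general astrocyte marker, read 7.18, 7.53, 7.31 and 7.66 at E18.5, against 5.33, 5.81, 5.64 and 5.55 at E15.5 (log2 fold change 1.84 ± 0.13, adjusted p = 9.3e-08). Both were near background at E15.5 and within a narrow range at E18.5. Aqp4, the water channel of astrocyte endfeet, was higher at E18.5 by at least 1.27-fold, adjusted p = 1.0e-04, and Sparcl1 (1.86), a secreted promoter of synapses, and Timp3 (1.28), a metalloprotease inhibitor, rose. Among the falls were Fgfr3, Sox9 (-1.06) and Nfia (-0.64), which start gliogenesis, Slc15a2 (-1.23), Aldoc (-0.94), Ttyh1 (-0.94) and Hopx (-0.57), a marker of outer radial glia in primates. None of 6 transcription factors of the list rose and 4 fell. Of 11 genes of metabolism and transport 6 rose and 4 fell.

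**Figure D3:**
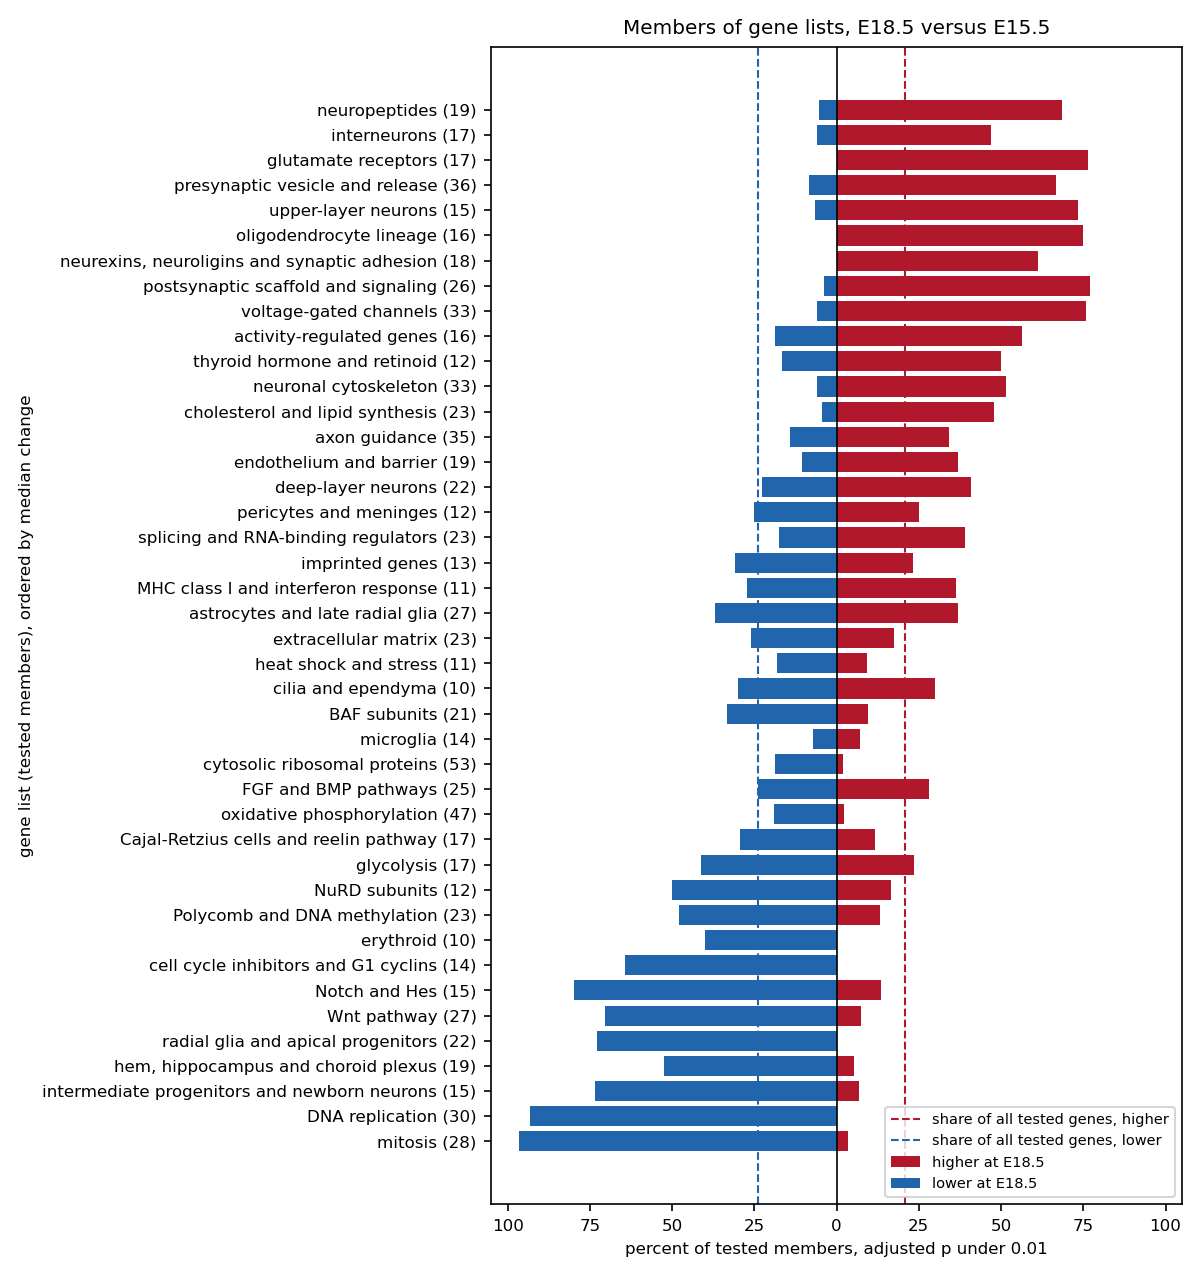
Changes by gene group. Each row is a gene group, with the number of tested members in parentheses, and bars give the percent of them that were higher (red, to the right) and lower (blue, to the left) at E18.5 at an adjusted p under 0.01. Dashed lines mark the shares of all tested genes, 20.7% higher and 23.9% lower, and the groups are ordered by their median change from neuropeptides down to mitosis.

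Layer markers differed by layer and by gene. Of 15 upper-layer genes 11 were higher and 1 lower (median 0.91). Mef2c, a factor of neuronal maturation and synapse number, read 12.32, 12.31, 12.23 and 12.33 at E18.5, against 9.61, 10.06, 10.08 and 9.76 at E15.5 (log2 fold change 2.42 ± 0.27, adjusted p = 5.4e-06). Inhba (2.08), an activin subunit, Pou3f1 (1.53), a POU factor, Nectin3 (1.31), an adhesion protein of which 1 of 3 probes went the other way, Lmo4 (0.91) and Cux2 (0.61), a defining factor of the upper layers, rose. Cux2 missed the threshold when replicate 1 of either stage or replicate 4 of E15.5 was left out (adjusted p up to 0.012). Its relative Cux1 read 10.28 ± 0.09 at E18.5 and 10.21 ± 0.14 at E15.5 (log2 fold change 0.07 ± 0.15, adjusted p = 0.74). Lhx2, which progenitors also transcribe, was the gene that fell (-0.99).

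The deep-layer list held 22 genes, 9 of them higher and 5 lower (median 0.32), and the count lower was 3 without E15.5 replicate 1 or 3 or E18.5 replicate 1 or 3. The corticofugal factors Bcl11b and Tbr1 did not pass. Bcl11b (Ctip2) read 12.24, 12.22, 12.28 and 12.27 at E18.5, against 12.28, 12.20, 12.37 and 12.48 at E15.5 (log2 fold change -0.08 ± 0.17, adjusted p = 0.71) and Tbr1 10.54, 10.63, 10.53 and 10.69 at E18.5, against 10.85, 10.33, 10.54 and 10.71 at E15.5 (log2 fold change -0.01 ± 0.11, adjusted p = 0.95). In both, the stages overlapped. Fezf2, which specifies subcerebral neurons, fell (log2 fold change -0.71 ± 0.07, adjusted p = 3.5e-06), as did Sox5 (log2 fold change -0.79 ± 0.21, adjusted p = 0.0052), whose adjusted p was 2.7e-06 without E12.5 replicate 4 and missed 0.01 when any 1 of the 8 arrays was left out (up to 0.018). Among the 9 rises, Ntsr1, the neurotensin receptor of layer VI neurons, read 10.21, 10.30, 10.20 and 10.37 at E18.5, against 7.68, 8.22, 8.21 and 8.05 at E15.5 (log2 fold change 2.23 ± 0.35, adjusted p = 1.1e-04), Nr4a2, an orphan receptor of the subplate and claustrum, 8.69, 8.86, 8.66 and 8.89 at E18.5, against 6.28, 6.70, 6.43 and 6.43 at E15.5 (log2 fold change 2.32 ± 0.15, adjusted p = 3.5e-08), and Etv1, a factor of layer V neurons, rose by 2.01 and Ldb2 by 1.72. Ccn2, a secreted protein of the subplate, rose (1.13), and Nxph4, a neurexin ligand of the same zone, fell (-1.56).

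Cajal-Retzius cells, the first-born cells of the marginal zone, showed falls in their factors Lhx1 (-1.48), Ebf3 (-1.19) and Lhx5 (-0.57), while the signal they secrete, Reln, read 11.89 ± 0.09 at E18.5 and 11.96 ± 0.12 at E15.5 (log2 fold change -0.07 ± 0.19, adjusted p = 0.77). On the receiving side, the reelin receptor Vldlr (0.97) and the adaptor Dab1 (0.69, with 1 of 3 probes the other way) rose, and the other receptor, Lrp8, read 9.45 ± 0.09 at E18.5 and 9.57 ± 0.14 at E15.5 (log2 fold change -0.12 ± 0.12, adjusted p = 0.43). Over the list, 2 of 17 genes were higher and 5 lower.

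Of interneuron genes 8 of 17 were higher and 1 lower (median 1.11, and 0.73 with bounds). In the fit of the 8 arrays alone 14 were higher, and with array weights 15. Gad1, which makes GABA, read 10.38, 10.31, 10.04 and 10.18 at E18.5, against 7.86, 8.64, 8.16 and 8.51 at E15.5 (log2 fold change 1.93 ± 0.44, adjusted p = 0.002). Lhx6 (at least 1.54-fold higher at E18.5, adjusted p = 8.1e-06) and Maf (at least 1.23-fold higher at E18.5, adjusted p = 1.5e-07), factors of interneurons born in the medial ganglionic eminence, were detected on E18.5 arrays only, as was Htr3a (at least 1.66-fold higher at E18.5, adjusted p = 9.7e-07), the serotonin receptor channel of interneurons born in the caudal eminence. Sst, which encodes somatostatin, averaged 10.87 ± 0.08 at E18.5 and 9.70 ± 0.33 at E15.5 and Dlx1 10.69 ± 0.09 at E18.5 and 9.49 ± 0.25 at E15.5 (SD, n = 4 each). The stages did not overlap in either, but both missed the threshold in the fit of 12 arrays (adjusted p = 0.14 for Sst and 0.096 for Dlx1) and passed it without E12.5 replicate 4 (adjusted p = 7e-06 and 1.26e-06). The single fall was in Sp8 (-0.49), a factor of the caudal and lateral eminence. Of 9 tested genes of the neighboring striatum and ganglionic eminence 3 rose and none fell: Nkx2-1 (0.75, adjusted p = 1.6e-04), the factor of the medial eminence, detected on 2 E18.5 arrays only, Olig2, and Foxp1 (1.43), which cortical neurons also transcribe. The summed linear signal of the 3 tested of 7 defining markers (Nkx2-1, Drd1 and Drd2) was 305 to 331 at E18.5 and 218 to 264 at E15.5, with no overlap, and moved with the interneuron genes, a part in the result that was not tested. Drd1, a dopamine receptor, read 7.79 ± 0.05 at E18.5 and 7.21 ± 0.20 at E15.5 (it passed without E12.5 replicate 4, adjusted p = 0.00051) and Drd2 5.58 ± 0.35 at E18.5 and 5.83 ± 0.15 at E15.5, and Gsx2, Six3, Isl1 and Penk were detected on none of the 8 arrays.

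Synaptic genes rose in large part. Of 36 presynaptic genes 24 were higher and 3 lower (median 1.04), of 26 postsynaptic genes 20 and 1 (median 0.86), of 17 glutamate receptor genes 13 and 0 (median 1.09), of 33 voltage-gated channel genes 25 and 2 (median 0.85), and of 18 adhesion genes 11 and 0 (median 0.89), against 20.7% higher and 23.9% lower of all genes. On the presynaptic side Rims1, the scaffold of the active zone, read 9.13, 9.16, 9.32 and 9.31 at E18.5, against 6.75, 6.96, 7.03 and 6.97 at E15.5 (log2 fold change 2.30 ± 0.14, adjusted p = 2.8e-08). Syt1, the calcium sensor of transmitter release, read 12.01, 11.94, 12.08 and 12.04 at E18.5, against 9.84, 10.30, 10.10 and 10.24 at E15.5 (log2 fold change 1.90 ± 0.24, adjusted p = 2.0e-05). No array crossed between stages in either gene. Syn1 (1.47), which tethers vesicles, Stx1a (1.48) and Vamp2 (1.07), which fuse them, and Doc2b (2.23), a calcium sensor, rose. Slc17a6 (Vglut2), a vesicular glutamate transporter that immature neurons use, fell (-0.57), as did the vesicle-priming genes Unc13a (5.03 to 5.11 at E18.5 against 5.48 to 5.82 at E15.5, detected on 1 array only) and Unc13b (-0.45), and Slc17a7 (Vglut1), the transporter of mature cortical neurons, averaged 7.59 ± 0.10 at E18.5 and 7.43 ± 0.12 at E15.5 (log2 fold change 0.16 ± 0.14, adjusted p = 0.36).

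On the postsynaptic side, Nrgn rose as given above, and Dlg4 (PSD-95), the main scaffold of excitatory synapses, read 8.32, 8.28, 8.17 and 8.47 at E18.5, against 7.33, 7.39, 7.55 and 7.37 at E15.5 (log2 fold change 0.90 ± 0.11, adjusted p = 1.3e-05). Shank3 (1.34), a scaffold below it, Adcy1 (2.19), a calcium-stimulated adenylate cyclase, Camk2b (2.003), a subunit of calcium/calmodulin kinase, and Prkcb (1.87), a protein kinase C, rose. Camk2a, the subunit that dominates in the adult forebrain, was higher at E18.5 by at least 1.99-fold, adjusted p = 1.7e-06, and Camk2d was the gene that fell (5.10 to 5.31 at E18.5 against 5.53 to 5.74 at E15.5), near background. Of the 3 NMDA receptor subunits tested 2 rose, Grin3a and Grin2b (log2 fold change 2.10 ± 0.18, adjusted p = 5.8e-07), the subunit of immature receptors. Of 6 genes of AMPA receptors and their auxiliary subunits 4 rose, led by Gria2 (log2 fold change 1.58 ± 0.15, adjusted p = 1.6e-06), which makes the channel impermeable to calcium. Gria1 averaged 10.36 ± 0.13 at E18.5 and 9.27 ± 0.24 at E15.5, with an adjusted p of 0.066 (2.43e-05 without E12.5 replicate 4). All 4 metabotropic receptor genes tested rose, Grm7 beside Grm5 (9.28 to 9.38 at E18.5 against 5.73 to 6.50 at E15.5, adjusted p = 1.4e-09). For GABA, the subunits Gabrb1 (9.35 to 9.59 at E18.5 against 6.94 to 7.46 at E15.5), Gabra3 (1.13) and Gabrb2, which was higher at E18.5 by at least 2.22-fold, adjusted p = 2.6e-07, rose.

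Most voltage-gated channel genes rose. Kcnd2, the A-type potassium channel of dendrites, read 10.35, 10.24, 10.30 and 10.21 at E18.5, against 7.84, 8.25, 8.11 and 8.05 at E15.5 (log2 fold change 2.21 ± 0.10, adjusted p = 2.3e-09). Hcn2, a pacemaker channel, read 8.54, 8.58, 8.63 and 8.51 at E18.5, against 6.19, 6.44, 6.48 and 6.19 at E15.5 (log2 fold change 2.24 ± 0.11, adjusted p = 3.7e-09). Both separated the stages without overlap. The sodium channels Scn2a (1.74) and Scn3a (1.51), which prevail in the embryonic brain, rose, Scn1a was higher at E18.5 by at least 1.11-fold, adjusted p = 9.6e-07, and Kcnf1, a silent potassium subunit, at least 2.93-fold higher at E18.5, adjusted p = 3.3e-09. The falls were Kcnq3 (-0.48) and Cacnb2 (-0.55), both low. Of the adhesion genes, Nrxn3 (1.84) and Nrxn2 (1.23), which are presynaptic, and Lrrtm2 (1.77) and Lrrtm1 (1.28), which bind them from the other side, rose. Of 19 neuropeptide genes 13 were higher and 1 lower (median 1.31, and 0.90 with bounds). Besides Nts, Npy and Tafa2, the rises took in Grp (9.31 to 9.62 at E18.5 against 6.69 to 7.34 at E15.5), gastrin-releasing peptide, Cck (1.83), cholecystokinin, and Adcyap1 (7.13 to 7.42 at E18.5 against 5.43 to 5.90 at E15.5), and the fall was that of Tac2 (4.89 to 5.51 at E18.5 against 6.34 to 6.70 at E15.5), a tachykinin.

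Genes that neuronal activity induces moved in both directions (9 of 16 higher, 3 lower). Egr1, an immediate early factor, read 8.74, 8.95, 9.15 and 9.10 at E18.5, against 6.20, 6.37, 6.35 and 6.40 at E15.5 (log2 fold change 2.65 ± 0.14, adjusted p = 8.6e-09). Egr3, its relative, read 7.88, 7.68, 7.67 and 7.70 at E18.5, against 4.54, 4.58, 4.64 and 4.56 at E15.5 (at least 3.83-fold higher at E18.5, adjusted p = 3.0e-11), and Vgf, a secreted peptide precursor, was higher at E18.5 by at least 3.88-fold, adjusted p = 1.2e-09. Bdnf, the neurotrophin, rose (6.66 to 7.10 at E18.5 against 5.78 to 6.30 at E15.5). Against these, Arc, the capsid-like regulator of AMPA receptors, fell out of detection, at 5.25, 5.10, 5.12 and 5.09 at E18.5, against 6.85, 6.61, 6.48 and 6.52 at E15.5 (at least 2.01-fold lower at E18.5, adjusted p = 1.0e-06), and Jun (-1.12) and the phosphatase Dusp1 (-0.44) fell.

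Of 33 genes of the neuronal cytoskeleton 17 were higher and 2 lower (median 0.60). The microtubule-associated proteins carried the rise (13 of 17), with Map4 (1.49), Map6 (1.45) and Map2 (0.56), the dendritic one. Mapt (tau) read 14.18, 14.18, 14.06 and 14.20 at E18.5, against 12.38, 12.70, 12.72 and 12.46 at E15.5 (log2 fold change 1.59 ± 0.42, adjusted p = 0.0057). Its adjusted p was 1.76e-08 without E12.5 replicate 4 and missed 0.01 when any 1 of the 8 arrays was left out (up to 0.017). Nefm, a neurofilament subunit, rose by 2.06. Of 10 tubulin genes 2 rose, Tubb4a (0.92) and Tubb4b (0.43, and 0.21 at an adjusted p of 0.109 with median scaling), and 2 fell, Tubb6 (-0.64) and Tubg1 (-0.80), which nucleates microtubules. Tubb3, a tubulin of young neurons, was among the 6 that did not pass, with 6.75 ± 0.17 at E18.5 and 6.53 ± 0.18 at E15.5 (log2 fold change 0.22 ± 0.17, adjusted p = 0.29). Of 35 axon guidance genes 12 were higher and 5 lower. The netrin receptor Unc5c (7.91 to 8.09 at E18.5 against 5.71 to 6.07 at E15.5) and the ligands Efna5 (9.86 to 10.11 at E18.5 against 8.21 to 8.42 at E15.5) and Sema3e, which was higher at E18.5 by at least 1.15-fold, adjusted p = 1.1e-07, rose, and Efnb1 (-1.23), Sema5a (-1.09) and Slit2 (-0.66) fell.

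The study centers on the NuRD complex, which joins nucleosome remodeling by 1 of the ATPases Chd3, Chd4 and Chd5 with histone deacetylation. The ATPases parted over this interval. Chd5 read 9.69, 9.74, 9.75 and 10.17 at E18.5, against 6.60, 7.31, 7.23 and 7.35 at E15.5 (log2 fold change 2.72 ± 0.21, adjusted p = 2.2e-07), a rise of 6.57-fold. Chd4 read 9.40, 9.05, 9.06 and 9.31 at E18.5, against 10.19, 9.79, 10.15 and 10.10 at E15.5 (log2 fold change -0.85 ± 0.12, adjusted p = 3.6e-05), and Chd3 10.43, 10.27, 10.18 and 10.13 at E18.5, against 9.92, 10.17, 10.11 and 10.10 at E15.5 (log2 fold change 0.18 ± 0.11, adjusted p = 0.19). Every E18.5 array was above every E15.5 array for Chd5 and below for Chd4, and the stages overlapped for Chd3. These are values of the brightest probes. Of the other Chd4 probes, 1 fell (-0.94) and 1 detected on all arrays of both stages did not pass (-0.16, adjusted p = 0.34). Another, detected on 1 E18.5 array only, did not pass either. Of 12 tested NuRD subunits 2 were higher and 6 lower. Besides Chd4, the falls were in Mta2 (-0.70), Mta3 (-0.99), Mbd2 (-1.05), Mbd3 (-0.40) and Rbbp4 (-0.60), and the other rise in Gatad2b (0.36, adjusted p = 0.0092), which missed the threshold in 13 of 26 other settings. Of 3 Rbbp4 probes 1 went the other way, and with the probes averaged its log2 fold change was 0.03. Hdac2, the deacetylase, averaged 13.08 ± 0.12 at E18.5 and 13.04 ± 0.09 at E15.5 on its brightest probe (log2 fold change 0.03 ± 0.08, adjusted p = 0.76). Its other tested probe, detected on 2 E18.5 arrays only, rose, and with the probes averaged the gene passed as higher (0.33, adjusted p = 0.000875). Mta1 averaged 7.10 ± 0.08 at E18.5 and 7.26 ± 0.17 at E15.5 (log2 fold change -0.16 ± 0.14, adjusted p = 0.35).

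In the BAF remodeling complex, which exchanges subunits as progenitors leave the cycle, Actl6a (Baf53a) of progenitors fell (log2 fold change -1.63 ± 0.14, adjusted p = 6.5e-07) and its neuronal counterpart Actl6b averaged 11.46 ± 0.06 at E18.5 and 10.94 ± 0.11 at E15.5 (log2 fold change 0.52 ± 0.34, adjusted p = 0.21, and 0.00249 without E12.5 replicate 4). The other Actl6a probe, detected on all arrays of both stages, did not pass (0.35, adjusted p = 0.089). Ss18 of progenitors fell (-0.85), and Smarca2 (0.91), an ATPase, and Smarcc2 (0.44), a core scaffold, were the 2 genes of 21 that rose, beside 7 that fell (4 with median scaling or cyclic loess). Of 23 genes of Polycomb and DNA methylation 3 were higher and 11 lower (7 lower with median scaling): Ezh2, the methyltransferase of dividing cells, fell (log2 fold change -0.83 ± 0.11, adjusted p = 2.1e-05), Ezh1, that of resting cells, rose (5.54 to 5.91 at E18.5 against 4.99 to 5.24 at E15.5, adjusted p = 1.5e-04), and Uhrf1, which recruits maintenance methylation at replication forks, fell by 1.77. Bmi1 (0.36) and Tet1 (0.54) were the other rises. Of the RNA-binding regulators, Ptbp1, the splicing repressor of progenitors, fell (-1.09). Celf4 (1.13), a neuronal regulator of splicing and mRNA, rose, and Elavl1 (-1.49), Msi2 (-0.78) and Igf2bp1 (-1.14), an mRNA-binding protein of early progenitors, fell. Over the group, 9 of 23 were higher and 4 lower.

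Markers of other cell types moved to different extents. Of 14 microglia genes 1 was higher (Laptm5, 0.42) and 1 lower (Aif1, -0.51), and the summed linear signal of 4 defining markers was 411 to 470 at E18.5 and 389 to 452 at E15.5. Of 19 endothelial and barrier genes 7 were higher and 2 lower, and the summed signal of the 3 tested of 4 defining endothelial markers was 1100 to 1300 at E18.5 and 853 to 927 at E15.5, though none of the 3 passed. Ly6c1 was higher at E18.5 by at least 1.69-fold, adjusted p = 2.1e-07, Flt1, a VEGF receptor, rose (1.33), and the glucose transporter Slc2a1 fell (-0.62). The adult globin genes Hba-a1 (-0.34, adjusted p = 0.035) and Hbb-bs (-0.31, adjusted p = 0.34) did not pass in the fit of all 12 arrays and passed as lower in the fit of the 8 arrays alone (adjusted p = 0.0074 and 0.0057), Hba-a1 also with median scaling (-0.58, adjusted p = 0.00204) and with array weights. Both embryonic globins fell as given above. Summed erythroid signals were 36700 to 43800 at E18.5 and 50900 to 52200 at E15.5. The part of blood content in other results was not tested. Of meninges markers 5 of 6 were detected on none of the 8 arrays, and Dcn, the only one tested, fell (-0.60, with linear signals of 196 to 273 at E18.5 and 302 to 375 at E15.5). Of 3 thalamic markers both tested ones fell, Lhx9 (-1.45) and Tcf7l2 (-0.89), and their sum was 108 to 125 at E18.5 and 211 to 280 at E15.5. Cortical identity was present at both stages: Tbr1, Neurod6 and Emx1 were detected at E18.5 and E15.5.

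Choroid plexus genes differed in how far they depended on E15.5 replicate 4. Ttr, the thyroid hormone carrier that the choroid plexus makes in bulk, read 4.70, 5.32, 6.59 and 6.54 at E18.5, against 7.15, 7.02, 7.10 and 13.42 at E15.5, and its adjusted p was 0.045 with all arrays (log2 fold change -2.88 ± 1.14) and 0.0285 without E15.5 replicate 4 (log2 fold change -1.30). Clic6, an ion channel protein of the same epithelium, read 4.63, 4.56, 4.55 and 4.60 at E18.5, against 5.44, 5.25, 5.76 and 8.52 at E15.5. Replicate 4 was the highest E15.5 array in both, and the other E15.5 arrays also lay above every E18.5 array in both. In Aqp1 and Kcne2 the other E15.5 arrays overlapped the E18.5 arrays. Aqp1 spanned 5.19 to 5.71 on them against 5.12 to 5.39 at E18.5, and Kcne2 4.77 to 5.12 against 4.73 to 5.16. Neither these 2 genes nor Folr1 passed without replicate 4 (adjusted p = 0.36, 0.95 and 0.49 in the same fit). Clic6 missed the threshold on all arrays (adjusted p = 0.025), passed it with array weights (0.00887) and passed it with E12.5 replicate 4 and E15.5 replicate 4 both left out (0.000125). Summed choroid plexus signals were 134 to 203 at E18.5 and 330 to 11800 at E15.5. Otx2, a factor of the choroid plexus and hem, was lower at E18.5 with that array (adjusted p = 2.3e-06) and without it (adjusted p = 3.6e-06), and so were Igfbp2 (-0.67, adjusted p = 5.7e-04, and 0.0019 without it), a binding protein of insulin-like growth factors, and Wnt3a (adjusted p = 2.8e-08 without it).

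**Figure D4:**
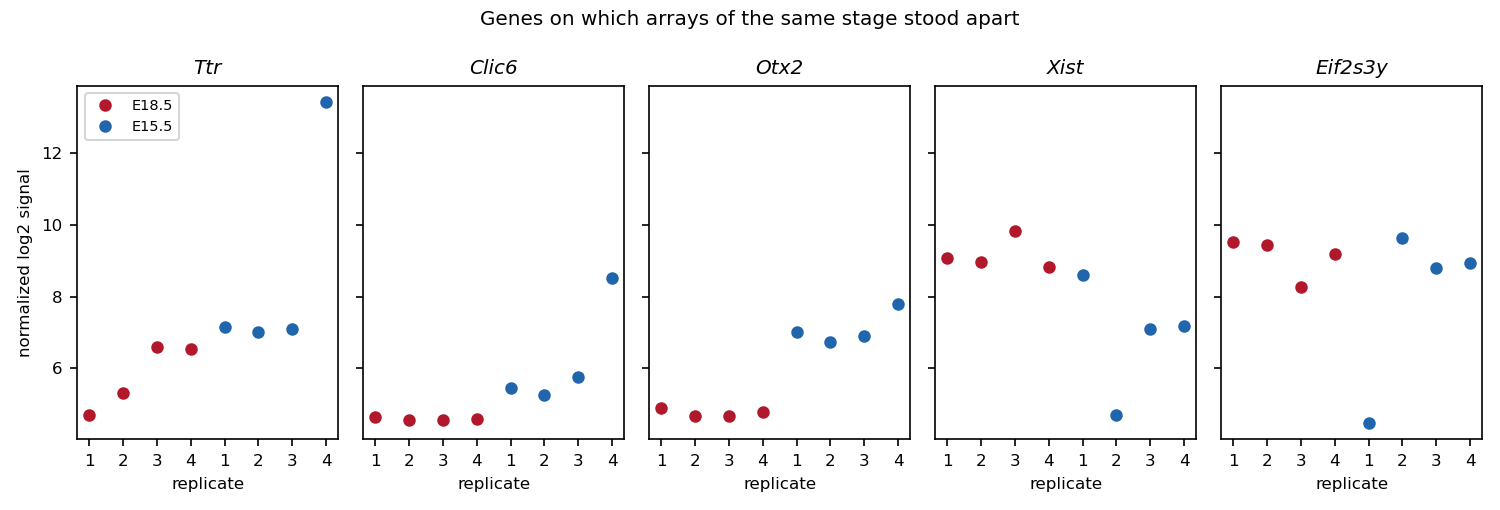
Transcripts that set single arrays apart. Log2 signals on each of the 8 arrays, E18.5 (red) left of E15.5 (blue), for Ttr, Clic6 and Otx2 of the choroid plexus and for the sex-linked Xist and Eif2s3y. Ttr is at 13.42 on E15.5 replicate 4, while the rest of that stage spans 7.02 to 7.15.

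Metabolic genes changed to different extents by group. Of 23 genes of cholesterol and lipid synthesis 11 were higher and 1 lower (median 0.55). Scd1, a fatty acid desaturase, read 8.77, 8.66, 8.82 and 8.84 at E18.5, against 6.70, 6.73, 7.15 and 6.77 at E15.5 (log2 fold change 1.93 ± 0.14, adjusted p = 8.4e-08). Sqle (0.89), Nsdhl (0.92) and Hsd17b7 (1.03), enzymes of the late sterol pathway, rose, and Acly, which supplies acetyl-CoA, fell (-0.35). Of 17 glycolysis genes 4 rose and 7 fell. Hk1, the hexokinase of neurons, rose (log2 fold change 1.5005 ± 0.14, adjusted p = 8.1e-07), as did the neuronal enolase Eno2 (1.13) and the neuronal glucose transporter Slc2a3 (0.91), and Pkm (-0.61) and Gapdh (-0.41) fell. Of 47 genes of oxidative phosphorylation 1 was higher and 9 lower (median -0.10), a count that was 4 with median scaling, 0 with cyclic loess and 4 or 5 without E15.5 replicate 1, E15.5 replicate 4, E18.5 replicate 2 or E18.5 replicate 4, and of 53 genes of cytosolic ribosomal proteins 1 and 10 (median -0.07). The ribosomal exception was Rps15a, with 10.27 to 10.47 at E18.5 against 8.68 to 8.90 at E15.5 (log2 fold change 1.55 ± 0.12, adjusted p = 2.7e-07). Of heat shock and stress genes none of the 7 chaperones passed, Vegfa rose (0.83), and Ddit3 (-0.49) and Ddit4 (-0.73) fell. Among imprinted genes, the growth inhibitor Grb10 fell, with 9.71 to 9.92 at E18.5 against 11.81 to 12.05 at E15.5 (log2 fold change -2.14 ± 0.09, adjusted p = 1.8e-09), and the noncoding Meg3 was higher at E18.5 by at least 1.51-fold, adjusted p = 2.5e-05. Of 12 genes of thyroid hormone and retinoid signaling 6 were higher and 2 lower. Slco1c1 read 9.53, 9.87, 9.56 and 9.63 at E18.5, against 6.49 to 7.15 at E15.5 (log2 fold change 2.71 ± 0.16, adjusted p = 2.2e-08), Klf9, a hormone-induced factor, rose by 1.57, and Dio2, which activates the hormone, was higher at E18.5 by at least 1.49-fold, adjusted p = 1.4e-04. The retinoic acid-binding protein Crabp1 was at least 1.89-fold lower at E18.5, adjusted p = 8.9e-04.

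Extracellular matrix genes changed in shares near those of all genes (4 of 23 higher and 6 lower, against 20.7% and 23.9%). Besides Col2a1, the glypican Gpc3, which binds growth factors at the cell surface, read 5.81 to 6.08 at E18.5, against 8.30, 7.69, 8.11 and 8.27 at E15.5 (log2 fold change -2.11 ± 0.17, adjusted p = 3.5e-07), and Col18a1 (-1.81) and Lama1 (-1.08), of basement membranes, fell. Spock2 (1.26), a proteoglycan of the brain matrix, rose. Of 10 genes of cilia and ependyma 3 were higher and 3 lower. The factors Rfx2 (-1.11) and Rfx4 (-1.10), which control ciliary genes, and Dnah11 (-1.98), a dynein of motile cilia, fell, and Ccdc39, which sets the beat structure of motile cilia, was higher at E18.5 by at least 1.42-fold, adjusted p = 2.6e-06. Of 11 genes of MHC class I and interferon response 4 were higher and 3 lower, led by Ifitm3 (7.86 to 8.17 at E18.5 against 6.68 to 6.99 at E15.5), which restricts viral entry.

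The late interval was set against the early one (E15.5 over E12.5) with the limma contrast of both changes, which share the E15.5 arrays. The change differed for 3411 of 18789 probes (18.2%). It differed for 643 of the 1330 genes called in the late interval (48.3%), a share favored by choosing them for their late change. Of the 745 genes called higher, 433 had also risen early at the adjusted p alone, 256 did not pass early and 56 had fallen early. Of the 585 called lower, 409 had also fallen early, 119 did not pass and 57 had risen early. Mitosis and replication genes had fallen already, 26 of 28 and 29 of 30 of them, while of the intermediate progenitor group 8 of 15 rose early and 2 fell, and 11 fell late. Over all genes 25.3% rose early and 20.7% fell, and the late change was above the early one in 7.81% and below it in 10.7%. Of cholesterol and lipid genes 6 of 23 fell early and none rose, and for 12 the late change was above the early one and for none below. Of oligodendrocyte genes 4 of 16 rose early and 2 fell, shares near those of all genes, and for 10 the late change was above the early one and for none below.

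Among genes that turned, Scd1 had the largest interval difference of those detected on all 8 arrays that fell and then rose (-1.58 early and 1.93 late). It was followed by Dtx4 (-1.29 early and 2.10 late), Sertm1 (-0.52 early and 2.67 late), Sulf2 (-1.91 early and 1.12 late), Zfp365 (-1.06 early and 1.97 late) and Mast4 (-1.33 early and 1.69 late). Dtx4 is a ubiquitin ligase of the Notch pathway and Sulf2 an enzyme that trims sulfate from heparan sulfate. Of genes that rose and then fell the largest were Pdlim3 (2.69 early and -1.57 late), Neurod4 (1.58 early and -2.27 late), Hs3st3b1 (1.93 early and -1.64 late), Ecrg4 (2.14 early and -1.21 late), Olfml3 (1.99 early and -1.36 late) and Apobec1 (1.78 early and -1.34 late). Neurod4 is a factor of newly committed neurons and Hs3st3b1 adds sulfate to heparan sulfate. The early values rest on E12.5 arrays of which replicate 4 lay nearer to E15.5 than the others did, and without it the difference between intervals was called for 4422 probes in place of 3411.

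**Figure D5:**
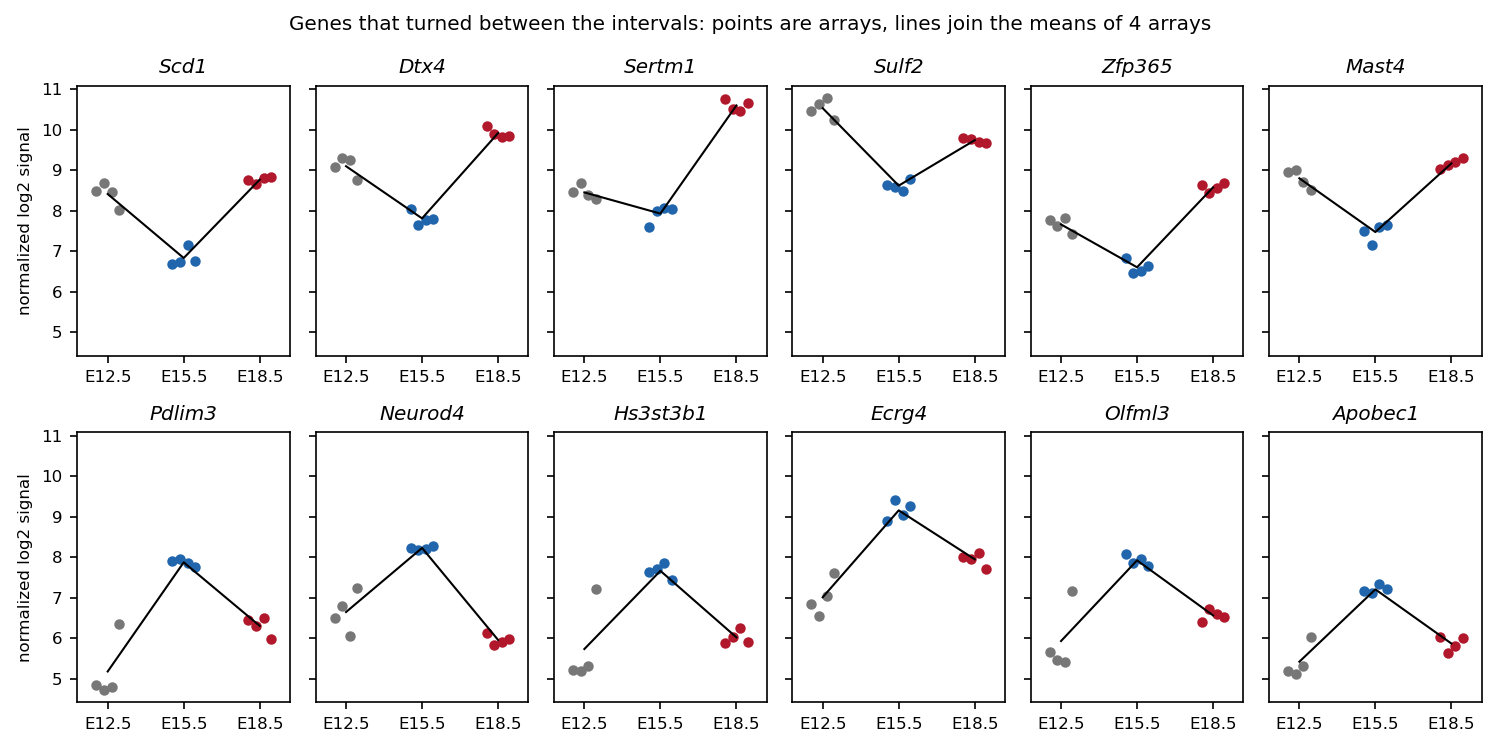
Genes whose change turned between the intervals. Log2 signals of the 4 arrays of each age (E12.5, then E15.5, then E18.5) for genes lowest at E15.5 (upper row) and highest at E15.5 (lower row), with lines joining the stage means. In Scd1 the E15.5 arrays lie below those of both other stages, and in Pdlim3, Hs3st3b1 and Olfml3 E12.5 replicate 4 lies apart from the other E12.5 arrays.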

How the data were processed

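The deposited tables held 3 kinds of value for 12 Illumina expression arrays. The authors exported bead-averaged probe intensities, not yet normalized, with a detection p-value for each probe and array. They also deposited a processed table of log2 values, which equals the quantile-normalized log2 of those intensities with no background correction. The submitters' processing notes name lumi, whose version is not given in the sources used here. Every value column was matched to an array by its name, and 0 were left unmapped.

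Here the intensities were background-corrected by normexp, with the negative controls inferred through those detection values (offset 16), and were quantile normalized over the 12 arrays and taken to log2 in R 4.3.3 with limma 3.58.1. Probes with a detection p below 0.01 on at least 1 of the 8 arrays of E18.5 and E15.5 were tested. A linear model with a mean per stage was fitted to all 12 arrays, which share an estimate of the spread, with lmFit and eBayes, and p-values were adjusted by Benjamini and Hochberg over all tested probes. Calls needed an adjusted p below 0.01 together with a fold of 2 or more, and list members were counted on the adjusted p alone. A gene stands for its tested probe with the highest mean over the 8 arrays. Where a gene was detected on no array of a stage, the fold is a bound: each array of the dimmer stage took its faintest detected signal, or the probe's own where that was higher, and their mean was set against that of the brighter stage.

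Probe names came from the platform annotation, which can be old, and promoters from RefSeq on GRCm38.p6. Motifs were counted and figures drawn with Python 3.11.15 and matplotlib 3.10.9. The fit was tested on simulated data. Precision is limited by 4 arrays a stage. The labels do not say whether an array holds 1 embryo or a pool. All 4 E18.5 arrays detected both Xist and the Y-linked Eif2s3y, which RNA of a single embryo would not hold. The p-values cover only the spread among the arrays, which may be technical.

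The members and gene lists were chosen with earlier results of these data known. The named genes are those the study names for the cortex or NuRD, the leading changes and bounds each way, up to 5 leading called members of each list, and the leading genes that turned between intervals. The text names 192 tested genes of that rule and 125 others that were chosen after their values were seen. Alternatives were the background correction, median scaling, cyclic loess, the deposited log2 values, the detection filter, the variance model, array weights, a replicate block, the arrays fitted, averaged probes, the minimum fold, the methods' t-test and each array left out. Leaving out 2 arrays at once was added after seeing the data.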

Additional observations from a re-analysis of the deposited data

Results flagged for a closer look

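The highest or lowest of the 4 arrays of a stage stood far from the others in 34 of 634 gene and stage groups, by a gap to the nearest array over the range of the 4 above Dixon's critical value. Chance flags about 1 in 20 groups. Over all 18789 tested probes the share flagged was 5.98% at E18.5 and 5.96% at E15.5, so the named genes were not flagged more often than probes in general. The ratios are given with the log2 signal of the array and the span of the other arrays of its stage. E18.5 replicate 1 lay above the rest of its stage in Egr3 (ratio 0.864, 7.88 against 7.67 to 7.70). E18.5 replicate 1 lay below the rest of its stage in Fezf2 (ratio 0.908, 12.28 against 12.44 to 12.46) and Sox5 (ratio 0.909, 10.85 against 11.11 to 11.13). E18.5 replicate 2 lay above the rest of its stage in Tafa2 (ratio 0.886, 11.48 against 11.29 to 11.31). E18.5 replicate 2 lay below the rest of its stage in Pold2 (ratio 0.835, 8.70 against 9.03 to 9.10). E18.5 replicate 3 lay above the rest of its stage in Adcyap1 (ratio 0.837, 7.42 against 7.13 to 7.18). E18.5 replicate 3 lay below the rest of its stage in Mef2c (ratio 0.871, 12.23 against 12.31 to 12.33) and Msx1 (ratio 0.838, 5.25 against 5.42 to 5.46). E18.5 replicate 4 lay above the rest of its stage in Axin2 (ratio 0.859, 8.48 against 8.23 to 8.26), Chd5 (ratio 0.87, 10.17 against 9.69 to 9.75), Nkd1 (ratio 0.955, 6.71 against 6.42 to 6.43) and Nkx2-2 (ratio 0.865, 5.91 against 5.59 to 5.63). Likewise above were Tubb3 (ratio 0.854, 7.0 against 6.63 to 6.68) on E18.5 replicate 4. E18.5 replicate 4 lay below the rest of its stage in Crabp1 (ratio 0.864, 4.75 against 5.37 to 5.46), Fabp7 (ratio 0.864, 7.43 against 8.73 to 8.94) and Neurod6 (ratio 0.851, 6.17 against 6.76 to 6.87). E15.5 replicate 1 lay above the rest of its stage in Cdkn1a (ratio 0.861, 8.07 against 7.86 to 7.89), Ddit3 (ratio 0.839, 8.14 against 7.98 to 8.01), H3c4 (ratio 0.886, 10.21 against 9.70 to 9.76) and Id4 (ratio 0.968, 11.10 against 10.78 to 10.79). E15.5 replicate 1 lay below the rest of its stage in Atp1b1 (ratio 0.918, 8.51 against 9.09 to 9.14), Chd5 (ratio 0.84, 6.61 against 7.23 to 7.35), Eif2s3y (ratio 0.837, 4.47 against 8.79 to 9.63) and Sertm1 (ratio 0.857, 7.61 against 8.01 to 8.07). E15.5 replicate 2 lay above the rest of its stage in Eomes (ratio 0.885, 10.58 against 10.08 to 10.13) and Tshz2 (ratio 0.839, 5.55 against 5.28 to 5.32). E15.5 replicate 2 lay below the rest of its stage in Elavl1 (ratio 0.964, 11.04 against 11.19 to 11.19), Ttyh1 (ratio 0.836, 11.16 against 11.54 to 11.61) and Vim (ratio 0.981, 11.91 against 12.17 to 12.18). E15.5 replicate 3 lay above the rest of its stage in Scd1 (ratio 0.847, 7.15 against 6.70 to 6.77) and Tet1 (ratio 0.847, 7.97 against 7.66 to 7.70). E15.5 replicate 3 lay below the rest of its stage in Dkk3 (ratio 0.831, 9.66 against 9.94 to 9.99). E15.5 replicate 4 lay above the rest of its stage in Clic6 (ratio 0.846, 8.52 against 5.25 to 5.76) and Ttr (ratio 0.981, 13.42 against 7.02 to 7.14). Without E15.5 replicate 4 the log2 fold change of Ttr was -1.30, against -2.88 on all arrays, and that of Clic6 was -0.90, against -1.66. Without E15.5 replicate 1 that of Eif2s3y was -0.02, against 1.14. None of these 3 genes passed the threshold with or without the array, with the other settings unchanged, and Clic6 passed it with array weights and when E12.5 replicate 4 was left out as well.

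The late and the early change ran in opposite directions, each at an adjusted p under 0.01, and differed by the limma contrast between them, for 37 of the 317 tested genes named. This count stands for no share of all genes. In each direction 6 genes were named because they turned, and others were named after their values were seen. In 14 the gene fell early and rose late, with a difference (late minus early, log2 scale) of 1.94 for Camk2a, 3.39 for Dtx4, 2.36 for Efna5, 2.66 for Etv1, 1.91 for Htr3a, 3.02 for Mast4, 1.42 for Mbp, 1.83 for Nectin3, 2.94 for Nr4a2, 4.18 for Pdgfra, 3.51 for Scd1, 3.19 for Sertm1, 3.03 for Sulf2 and 3.03 for Zfp365. In 23 the gene rose early and fell late, with a difference of -0.921 for Aif1, -1.45 for Aldoc, -3.12 for Apobec1, -2.41 for Arc, -2.32 for Crabp1, -1.11 for Ddit4, -1.30 for Dusp1, -3.35 for Ecrg4, -1.19 for Fezf2, -0.909 for Hopx, -3.57 for Hs3st3b1, -2.38 for Insm1, -1.31 for Kcnq3, -3.85 for Neurod4, -1.04 for Nfia, -3.35 for Olfml3, -4.26 for Pdlim3, -2.76 for Rnd2, -2.29 for Slc15a2, -1.18 for Slc17a6, -2.47 for Sox5, -3.41 for Tac2 and -1.31 for Unc13a. Where a gene is undetected at a stage, these are fitted values and no bounds.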

How the results depend on the processing

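No called gene changed sign under any of the 26 settings that refitted all genes. Without background correction, and equally with the deposited log2 values, 694 probes were called higher and 487 lower, or 426 and 324 genes, and 735 of the 1330 called genes were shared. The fold of 68 of the 317 genes looked at then moved by over 1.5 times. A minimum fold of 1.5 gave 2843 probes higher and 2382 lower, and no minimum fold 3940 and 4145. Median scaling raised the share of higher calls to 68.7%, against 58.9% as reported, with the median of all probes at 0.074 against -0.035. The methods' t-test, on the same values and fold, called 1400 probes higher and 962 lower at its unadjusted threshold, and 1368 and 952 after Benjamini-Hochberg adjustment. With 1 array left out, 1241 to 1401 probes were called higher and 909 to 1021 lower, 681 to 765 genes higher and 562 to 624 lower, and the interval difference counted 2307 to 4422 probes. The highest of these last counts came without E12.5 replicate 4, and the fewest genes, 1243, without E15.5 replicate 1.

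Genes just inside the adjusted p of 0.01 missed it most often: Kcnq3 in 17 of 25 settings (adjusted p up to 0.072), Sox5 in 13 of 26 settings (adjusted p up to 0.02), Gatad2b in 13 of 26 settings (adjusted p up to 0.23), Laptm5 in 13 of 26 settings (adjusted p up to 0.028), Mapt in 12 of 26 settings (adjusted p up to 0.022), Sp8 in 11 of 26 settings (adjusted p up to 0.076), Camk2b in 10 of 26 settings (adjusted p up to 0.02), Smarcc2 in 10 of 26 settings (adjusted p up to 0.026), Pou3f1 in 10 of 26 settings (adjusted p up to 0.017), Bmi1 in 9 of 26 settings (adjusted p up to 0.029), Mbd3 in 8 of 26 settings (adjusted p up to 0.024), Camk2d in 8 of 25 settings (adjusted p up to 0.028), Cux2 in 4 of 26 settings (adjusted p up to 0.012), Dusp1 in 2 of 26 settings (adjusted p up to 0.018) and Lhx5 in 2 of 26 settings (adjusted p up to 0.049). All but Cux2, Dusp1 and Lhx5 missed it without 4 or more of the arrays taken singly. Acly, Aif1, Cacnb2, Dab1, Ddit3, Gapdh, Nme7, Rbbp4 and Tubb4b missed it in 1 setting each. Without E12.5 replicate 4, 6 genes passed that had not, which were Actl6b, Dcx, Dlx1, Drd1, Gria1 and Sst. The fit of the 8 arrays alone passed 10 that had not (Actl6b, Dcx, Dlx1, Drd1, Gria1, Hba-a1, Hbb-bs, Pax6, Slc1a3 and Sst), averaged probes passed Dut, Gria1 and Hdac2, and without E12.5 replicate 3 Slc1a3 and Xist passed. Signs turned for genes that had not passed, and for Rbbp4 with its probes averaged (0.035). Under median scaling the log2 fold change was 0.071 for Cdkn1b, -0.093 for Hdac2, 0.017 for Mta1 and 0.023 for Tbr1. Under cyclic loess it was 0.048 for Bcl11b, 0.0036 for Cdkn1b, 0.073 for Reln and 0.099 for Tbr1, and for Tbr1 without both E12.5 replicate 4 and E15.5 replicate 4 it was 0.024. With 1 array left out it spanned -0.15 to 0.0545 for Cdkn1b, -0.019 to 1.70 for Eif2s3y, -0.0137 to 0.0795 for Hdac2, -0.0198 to 0.54 for Neurod6 and -0.10 to 0.0687 for Tbr1. The cause was not tested.

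The labels number the replicates of each stage but tie no numbers together. Deviations of same-numbered E18.5 and E15.5 arrays correlated at -0.0903, 0.239, -0.167 and 0.158, so the numbers were not taken as pairs. With the replicate block 1330 genes were called, 1328 of them shared, and the interval difference counted 2688 probes. The adjusted p of 7 of the genes named then missed 0.01. Dim probes limit the folds: genes undetected at a stage have bounds only.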
